A study of Drosophila melanogaster with 9 samples.

Results

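The wild-type transcriptome described here is that of OregonR embryos of Drosophila melanogaster at stage 5, measured by RNA sequencing of polyadenylated RNA. It was taken as the 3 OregonR libraries, replicates 1, 2 and 3 of experiment 1013, of 9 libraries of 3 genotypes. The other 6 libraries came from ataxin-7 and non-stop mutant embryos, and none of their levels entered a comparison. OregonR is a standard wild-type laboratory strain, and no transgene, mutation or agent was given for it. Flies were kept at 25 °C, eggs were laid over 2 h and aged for a further 1 h, and embryos of stage 5 were picked by hand before RNA was extracted with a silica column kit and made into stranded libraries. The labels describe the replicates as biological triplicates but do not give the number of embryos pooled in each library.

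During the first hours of development the fly embryo lives on RNA and protein that the mother loaded into the egg. Around stage 5, these maternal messages are cleared in successive waves while the genome of the embryo begins to be transcribed broadly. At this stage membranes grow in between the nuclei of the surface to form the first cell layer, a process called cellularization. In the same period the gap, pair-rule and dorsal-ventral genes divide the sheet of nuclei into territories, and the pole cells, the germ line precursors, already stand apart at the posterior end.

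Levels are given as RPKM, the reads of a gene per kb of length and per megaread (M) of the library, as deposited by the authors. The whole reads behind these values were recovered by arithmetic for 13796 of the 13809 genes above 0 in any library (99.9%), and they summed to 80.1, 90.1 and 76.5 M reads in genes in replicates 1, 2 and 3. A count of 3 reads on 1 kb amounted to 0.0384, 0.0348 and 0.0402 RPKM, which was taken as the floor below which a level was not measurable, for counting error alone. The length behind the RPKM was mostly the genomic span with introns included, which fitted within 5% in 83.5% of 10674 genes with introns, so levels of genes with long introns are low for the abundance of their transcripts. In the annotation used here 7207 genes overlapped another gene, and whether the counting made use of the strand is not given in the sources used here.

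The libraries did not stand equally close to one another. On log2(RPKM + 1) over the 6947 genes with a mean of at least 1 RPKM, replicates 1 and 2 had a Pearson r of 0.996 across genes, while replicate 3 had an r of 0.981 with replicate 1 and of 0.986 with replicate 2. These correlations are across genes, which are not independent replicates. A difference of at least 2-fold on this scale was seen in 14 genes between replicates 1 and 2, in 87 between replicates 1 and 3 and in 57 between replicates 2 and 3. Replicate 3 therefore stood apart from the other libraries. Many values below are given for each replicate and can be read with and without it. Others are a mean with SD, or a median, over all 3 replicates. Replicate 3 was the lowest library in 39.8% and the highest in 46.5% of all 6947 genes, the background for each list below. With 3 samples of a single group there is no comparison between groups, so no test was made and no p-value is given.

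Of 15682 genes in the table, 6947 had a mean of at least 1 RPKM over the replicates, which is 44.3%. A further 5921 genes were above 0 and under 1 RPKM, and 2814 genes had no read in any replicate, which for a gene of 1 kb allows a level of up to the floors given above. The reads were concentrated in few genes. The 60 genes of 1000 RPKM or more took 18.8 ± 0.604% of the reads (SD, n = 3), and the 592 genes of 100 to 1000 RPKM took 33.2 ± 0.368%. The 5921 genes under 1 RPKM together took 0.661 ± 0.0150%. The 100 most abundant genes of each library by reads held 29.3%, 28.3% and 27.9% of its reads in replicates 1, 2 and 3, and the top 1000 held 71.2%, 70.6% and 70.1%, so that the steepness of the distribution was much alike in the 3 libraries.

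**Figure D1:**
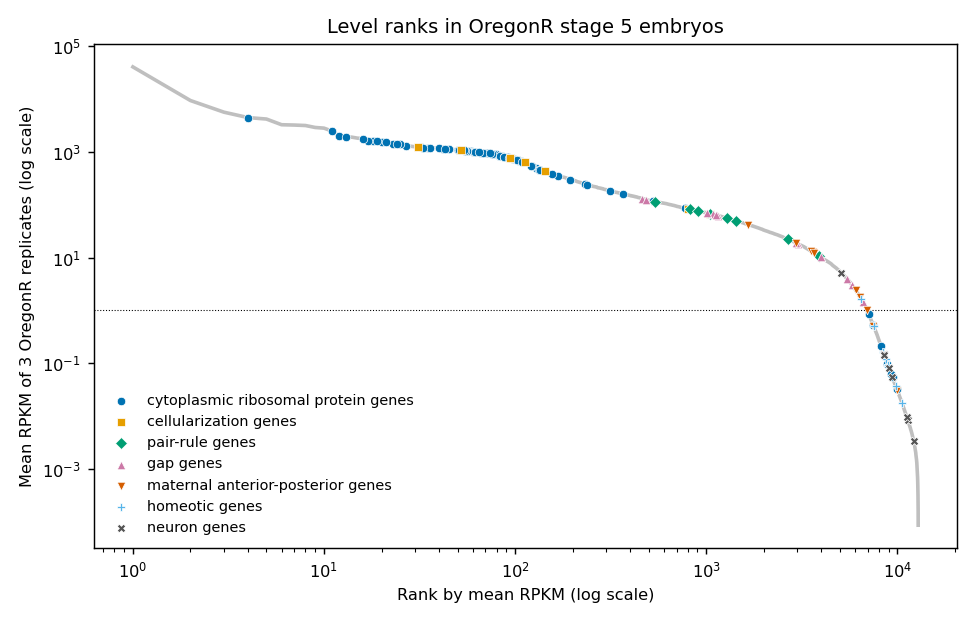
Mean RPKM of the 3 OregonR replicates (log scale) against the rank of the gene by that mean (log scale, rank 1 is the most abundant), as a grey line, with the members of 7 gene lists marked and a dotted line at 1 RPKM. Most ribosomal protein genes and 5 of the 7 cellularization genes sit above 400 RPKM, gap and pair-rule genes lie between about 1 and 130 RPKM, and most homeotic and neuron genes lie below 1 RPKM. Levels are per deposited length, which lowers genes with long introns such as the homeotic ones.

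The most abundant RNA was mt:lrRNA, the large ribosomal RNA of the mitochondrion, which carries a poly(A) tail and is kept by a selection for polyadenylated RNA. It stood at 42061, 40214 and 39118 RPKM in replicates 1, 2 and 3, and it accounts for most of the 5.20 ± 0.208% of reads in genes annotated as rRNA. The small mitochondrial ribosomal RNA, mt:srRNA, stood at only 16.8, 9.71 and 17.5 RPKM (chosen after its values were seen). Messages for subunits of the respiratory chain that the mitochondrial genome encodes followed. The cytochrome c oxidase subunit genes mt:CoIII and mt:CoI had means of 9354 ± 640 and 5622 ± 380 RPKM (SD, n = 3), the apocytochrome gene mt:Cyt-b had 4175 ± 280.2 RPKM, the ATP synthase gene mt:ATPase6 had 3260 ± 394 RPKM and mt:CoII had 3149 ± 321 RPKM. In all, 37 genes of the mitochondrial genome took 8.36%, 7.67% and 7.66% of the reads in replicates 1, 2 and 3.

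Genes of the translation machinery made up most of the rest of the top ranks. Of the 20 most abundant genes with a symbol, 10 encode cytoplasmic ribosomal proteins, led by RpL41 at 4454 ± 254 RPKM, RpL21 at 2474 ± 188 RPKM and RpLP2 at 1982 ± 106 RPKM, and further down by RpS3A, RpS28b, RpS18, RpS2, RpL7, RpLP1 and RpS24, which lay between 1564 and 1936 RPKM. RpL41 lies inside the span of the sodium channel gene NaCP60E in the annotation. The other top genes were Tctp, which encodes the translationally controlled tumor protein, at 2872, 2814 and 2742 RPKM, the tubulin gene alphaTub84B at 1894 ± 56.4 RPKM and eEF2, which moves the ribosome along the message, at 1815 ± 62.5 RPKM. An identifier without a symbol in the annotation held rank 7, at 3213 ± 83.3 RPKM, and its gene was not identified here. It may belong to a listed gene that is given below as matching no row. As a list, 81 of 88 cytoplasmic ribosomal protein genes reached 1 RPKM, with a median of 898 RPKM over all 88, and they took 9.82%, 9.28% and 9.91% of the reads. The 7 members under 1 RPKM were duplicates of a ribosomal protein gene such as RpS19b at 0.540 RPKM and RpL22-like at 0.0332 RPKM (chosen after their values were seen). Their spread over replicates was small, with a median coefficient of variation (CV, the SD as a percent of the mean) of 4.57% against 11.2% over all 6947 genes.

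The only uncharacterized gene among these 20 was CG13427, a single-exon gene of 2R:20538877-20539316 in the BDGP6 annotation (minus strand), at 3010 RPKM in replicate 1, 3393 RPKM in replicate 2 and 2271 RPKM in replicate 3. It held rank 9 and had the largest CV of the 20 most abundant genes with a symbol, 19.7%, with replicate 3 the lowest. A similar order was seen in SNCF, at 1278, 1465 and 989.9 RPKM, and in CG4440, at 1305, 1290 and 874 RPKM, both of which were picked out after their values were seen. When levels were recomputed per summed exon length instead of the deposited length, 15 of the 20 genes were again among the top 20, and RpS27A, RpL23, RpL39, the chromatin decondensation factor gene Df31 and the pseudogene CR33222 took the other places. CR33222 overlaps the ribosomal protein gene RpS6, and its reads cannot be told apart from those of RpS6 here.

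By annotated class, 6300 of 13298 protein-coding genes reached 1 RPKM and held 86.4 ± 0.345% of the reads. Noncoding RNA genes reached it less often, 114 of 796, and held 0.429 ± 0.0357% of the reads. Short RNA classes were also listed, with 122 of 258 snoRNA genes and 9 of 309 tRNA genes at 1 RPKM or more, but they held 0.00505% and 0.00442% of the reads, and a small number of reads on a very short gene already gives a high RPKM. The abundant noncoding genes after mt:lrRNA were lncRNA:CR43887 at 982, 969.6 and 718 RPKM, the pseudogene CR33222 at 638 ± 10.6 RPKM and lncRNA:CR42491 at 517 ± 29.4 RPKM. A mitochondrial leucine tRNA, mt:tRNA:Leu-TAG, which directly borders mt:lrRNA, stood at 381 ± 73.4 RPKM. Next came the microRNA precursor loci mir-4961 at 224 ± 15.5 RPKM and mir-4956 at 195 ± 27.1 RPKM, each of which lies inside another gene (Sxl in the case of mir-4956), and lncRNA:CR43900 at 193 ± 42.1 RPKM.

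Expressed protein-coding genes were spread over the chromosome arms in similar proportion, from 46.4% of those on 3L to 49.8% of those on the X (1032 of 2072), with 66.7% on the small chromosome 4 (52 of 78) and 0 of 6 on the Y. The median level of the expressed coding genes was 11.9 RPKM on the X, between 13.5 and 16.1 RPKM on the arms of chromosomes 2 and 3, and 27.4 RPKM on chromosome 4. The X median was 10.8, 11.4 and 13.2 RPKM in replicates 1, 2 and 3. The 4 matched dosage compensation genes, of a list drawn up after values were seen, stood between 19.5 RPKM for msl-3 and 35.8 RPKM for msl-1. Both encode subunits of the complex that raises transcription of the male X. The genes roX1 and roX2 of this list matched no row.

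The stage label was set against lists of marker genes. Of 96 early zygotic genes in 10 lists, 78 reached 1 RPKM, and of 52 genes in 5 maternal lists, 43 did, against 44.3% of all genes. The genes of other cell types and later stages were near the floor: of 390 genes for neurons, glia, muscle, hemocytes, testis, fat body and gut, yolk and eggshell, cuticle, chemoreceptors and gut proteases, 10 reached 1 RPKM, 163 had no read in any replicate, and all together took 0.0242%, 0.0228% and 0.0201% of the reads. The vesicular glutamate transporter gene VGlut, the muscle light chain gene Mlc1, the hemocyte receptor gene NimC1 and the larval serum protein genes Lsp1alpha and Lsp1beta were at 0, and the glial gene repo stood at 0.0712 RPKM (named for their roles after their values were seen). Among the 10 exceptions were bam, known from the germ line of testis and ovary, at 9.52, 10.2 and 15.5 RPKM, the neuronal RNA-binding protein gene elav at 5.91, 6.04 and 3.40 RPKM, the muscle actin gene Act57B at 4.98 ± 0.613 RPKM and the scavenger receptor gene crq at 2.25, 2.21 and 4.35 RPKM. Each of these 4 overlaps another annotated gene.

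The zygotic lists took 1.66%, 1.69% and 1.498% of the reads in replicates 1, 2 and 3, and the maternal lists took 0.729%, 0.802% and 0.971%. Replicate 3 thus had the lowest zygotic and the highest maternal share. The share of the cellularization genes did not fall in replicate 3, unlike that of the other zygotic lists together. Against the mean of the others, replicate 3 was higher in 4 of these 7 genes and lower in 3. The 4 include slam, which had the most reads of the list, 282294, 315556 and 294228. Without the cellularization genes the zygotic share was 0.967%, 0.984% and 0.761%, while they alone took 0.696%, 0.707% and 0.737%. These shares count only the genes listed and are not an estimate of all zygotic or all maternal RNA, since a message can have both origins. In such bulk libraries, fewer nuclei that transcribe a gene and less RNA from each cannot be told apart.

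**Figure D2:**
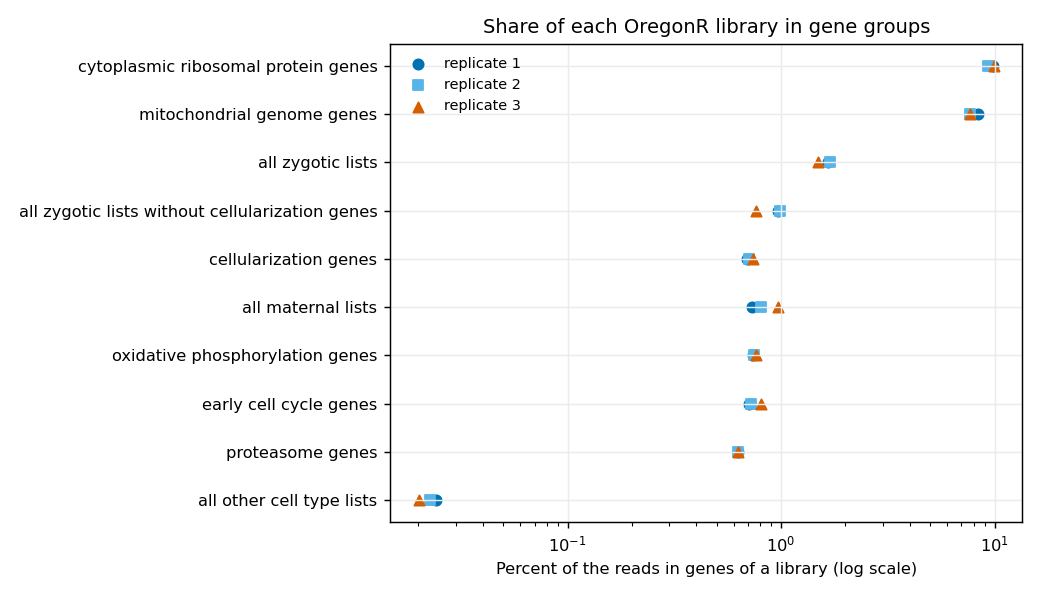
Percent of the reads in genes (log scale) that 10 groups of genes took in each OregonR replicate, with a blue circle for replicate 1, a light blue square for replicate 2 and an orange triangle for replicate 3. Ribosomal protein genes and the mitochondrial genome each took between 7.66% and 9.91%, and the symbols separate most in the maternal lists and in the zygotic lists without the cellularization genes.

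The cellularization genes were the most abundant of the patterning and morphogenesis lists, with all 7 above 40 RPKM in every replicate and a median of 632 RPKM. Z600, also called frühstart, which encodes a brake on mitosis, stood at 1208, 1336 and 1138 RPKM and at rank 31 of all genes. It is a single-exon gene of 3L:15509061-15509513 in BDGP6 and lies within the span of gdl, and its reads in replicates 1, 2 and 3 numbered 42741, 52203 and 38448. The lipid droplet transport gene halo was at 1031, 1074 and 1127 RPKM, and slam, which is needed for membrane invagination, was at 742, 751 and 809 RPKM. For these genes the replicates lay within a range of 0.23 on the log2 scale. Sry-alpha, which encodes an actin-associated protein of the furrow, followed at 632 ± 20.4 RPKM, and bnk, which restrains basal contraction of the furrow network, at 370.0, 452 and 459 RPKM. The String antagonist gene trbl was lower, at 86.4, 92.2 and 74.5 RPKM. The exception in spread was nullo, a gene for stable furrow junctions, at 44.0, 65.3 and 93.3 RPKM, whose replicates did not lie close together and whose log2 range was 1.07. Of the 7 genes, 4 have no intron.

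All 13 gap genes and head gap genes were above 1 RPKM, with a median of 62.2 RPKM. The posterior and head gap gene gt was the most abundant, at 125, 141 and 123.2 RPKM, next to the Sox gene D at 120.3, 135 and 119 RPKM. A second tier held tll and hkb, the terminal gap genes, Kr, the central one, kni, the abdominal one, and hb, the anterior one. These 5 had means between 62.2 and 69.6 RPKM, and each pair of them differed by less than the range of the replicates of one or the other. The head genes croc, ems and btd lay lower, at 19.2 ± 2.78, 18.1 ± 2.58 and 10.1 ± 1.44 RPKM. The lowest per deposited length were oc at 3.97 ± 0.687 RPKM, knrl at 2.97 ± 0.842 RPKM and cnc at 1.47 ± 0.128 RPKM. In reads, oc (6594, 8098 and 4935) and knrl (6319, 7045 and 3507) exceeded ems (4202, 4722 and 3130) and btd (2728, 3326 and 2155). Their place below ems and btd therefore depends on the length used. The long gene cnc came to 6.38 RPKM per summed exon length. Replicate 3 was the lowest of the 3 libraries in 10 of the 13 genes. The median of replicate 3 against the mean of the others was -0.17 on log2(RPKM + 1), and the largest deficit was -0.57 in knrl.

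The pair-rule genes, which lay the first repeated pattern, were at similar levels, with a median of 61.7 RPKM in 8 genes. The pair-rule gene h matched no row. The primary pair-rule genes eve and run stood at 77.3, 99.5 and 70.8 RPKM and at 54.1, 53.2 and 42.8 RPKM. ftz stood highest, at 116, 142 and 86.5 RPKM, and odd followed eve at 79.5, 84.6 and 64.4 RPKM. The late-acting prd was at 62.4, 68.3 and 37.2 RPKM, slp1 at 73.0, 74.4 and 55.1 RPKM, opa at 25.2, 25.9 and 15.5 RPKM and slp2 at 12.6, 11.3 and 7.78 RPKM. Replicate 3 was the lowest library in 8 of these 8 genes, against 39.8% of all 6947 genes, with a median of -0.48 on log2(RPKM + 1). In prd the deficit was -0.80 and in opa -0.69, and in eve and run it was -0.30 and -0.32.

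The segment polarity genes, which act after the pair-rule genes at the borders of parasegments, were only beginning to be detected, with 6 of 9 genes above 1 RPKM and a median of 1.68 RPKM. The Hedgehog receptor gene ptc stood at 30.6, 31.1 and 20.1 RPKM, wntD at 20.8, 19.5 and 10.4 RPKM and nkd at 6.40, 6.69 and 3.25 RPKM. The Wnt family gene wntD was on the list, and is in its counts, without being a classical segment polarity gene. The segment polarity gene wg matched no row. Lower still were gsb at 2.90, 2.45 and 0.674 RPKM, mid at 2.37, 2.18 and 0.492 RPKM and en at 1.34, 1.39 and 0.290 RPKM. In these 6 genes replicate 3 was the lowest and at least 1.5-fold below the mean of the others on log2(RPKM + 1), against 5.86% of all 6947 genes. The homeotic genes were low per deposited length, with 1 of 8 above 1 RPKM and a median of 0.108 RPKM. Their median span was 30563 bp against 4429.5 bp of exons, and per summed exon length the median was 1.02 RPKM. The gene above 1 RPKM was Dfd at 2.17, 1.98 and 0.860 RPKM, and abd-A and Ubx followed at 0.509 and 0.166 RPKM. Replicates 1 and 2 were alike and replicate 3 was lower in each of these 3 genes.

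Genes of the dorsal-ventral axis ranged from over 100 RPKM to below 1 RPKM. In the mesoderm and gastrulation list, sna, the repressor that sets the mesoderm border, stood at 133, 160.1 and 104 RPKM and twi, the activator of mesoderm genes, at 111, 127 and 92.5 RPKM, with the cytochrome gene Cyp310a1 next at 51.1 ± 11.7 RPKM. The other members lay below 8 RPKM. Among them were the FGF receptor gene htl at 7.57, 6.49 and 3.84 RPKM and tin, a later mesoderm gene, at 2.19, 2.14 and 0.542 RPKM. Replicate 3 was lowest in 7 of the 8 members above 1 RPKM. The exception was fog, which encodes the signal for apical constriction, at 1.43, 1.66 and 2.10 RPKM. In the neuroectoderm list SoxN led at 47.9, 48.6 and 27.5 RPKM, followed by the Dpp repressor brk at 40.5, 44.9 and 30.4 RPKM and by the proneural l(1)sc at 23.7, 22.5 and 26.5 RPKM. The largest range in this list was that of ind, a gene of the intermediate column, at 11.3, 12.5 and 5.00 RPKM, and replicate 3 was lowest in 9 of the 10 members above 1 RPKM.

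In the dorsal ectoderm list the members did not share a direction in replicate 3. The homeobox gene zen, which acts in the prospective amnioserosa, stood at 127, 151 and 146 RPKM. The BMP ligand gene scw, which is transcribed early and throughout the embryo, stood at 68.0, 81.4 and 115.3 RPKM, and the protease gene tld, which frees the ligands, at 66.7, 56.9 and 65.6 RPKM. Replicate 3 was the highest for scw, for tsg at 49.9, 52.3 and 62.2 RPKM and for zen2 at 16.6, 18.4 and 21.6 RPKM. It was the lowest for 8 of the 13 members above 1 RPKM. Among these were the peptidase gene Ance, with the largest range of the list, at 26.7, 23.4 and 14.7 RPKM, and the T-box genes Doc3, at 17.0, 16.2 and 9.27 RPKM, and Doc1, at 16.3, 14.5 and 10.5 RPKM. The gene dpp, for the other BMP ligand, was low per deposited length, at 2.20 ± 0.226 RPKM over the long span 2L:2428372-2459823. Its reads, 5420, 6551 and 4608, outnumbered the 3457, 4000 and 4113 of tsg.

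The Bearded family, small intronless genes for antagonists of Notch signalling at the mesoderm border, was above 1 RPKM in 6 of 6 genes, with a median of 83.1 RPKM. Tom stood at 369, 343 and 200.1 RPKM, BobA at 169, 167 and 94.8 RPKM and Brd at 117, 128 and 71.7 RPKM. The widest range, 1.11, was that of E(spl)malpha-BFM, at 8.58, 8.37 and 3.43 RPKM. Replicate 3 was lowest in each of the 6, with a median of -0.79 on log2(RPKM + 1). The bHLH genes of the Enhancer of split complex, targets of Notch chosen after values were seen, were lower, with 3 of 7 above 1 RPKM. E(spl)m7-HLH had a mean of 15.8 ± 5.85 RPKM and E(spl)m5-HLH stood at 13.7, 14.6 and 6.38 RPKM, both again lowest in replicate 3. Another member, E(spl)mgamma-HLH, had 137 reads in replicate 1, 11 in replicate 2 and 3 in replicate 3, or 1.93, 0.140 and 0.0441 RPKM.

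The genes that read the number of X chromosomes and set the sex of the embryo were all above 10 RPKM, 6 of 6, with a median of 38.0 RPKM. The X-linked signal gene sisA stood at 65.3 ± 4.63 RPKM and upd1 at 34.8 ± 2.47 RPKM. dpn, which counters them, stood at 47.5 ± 3.84 RPKM. Sxl, the switch gene, stood at 41.5, 39.6 and 32.8 RPKM and msl-2, which Sxl represses in females, at 41, 42 and 31.3 RPKM. Replicate 3 was lowest in 4 of the 6 genes. It was the highest for sc, an X-linked signal gene transcribed early, at 13.5, 16.2 and 30.6 RPKM, which had the largest log2 range of the list, 1.12, and which overlaps CG32816.

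**Figure D3:**
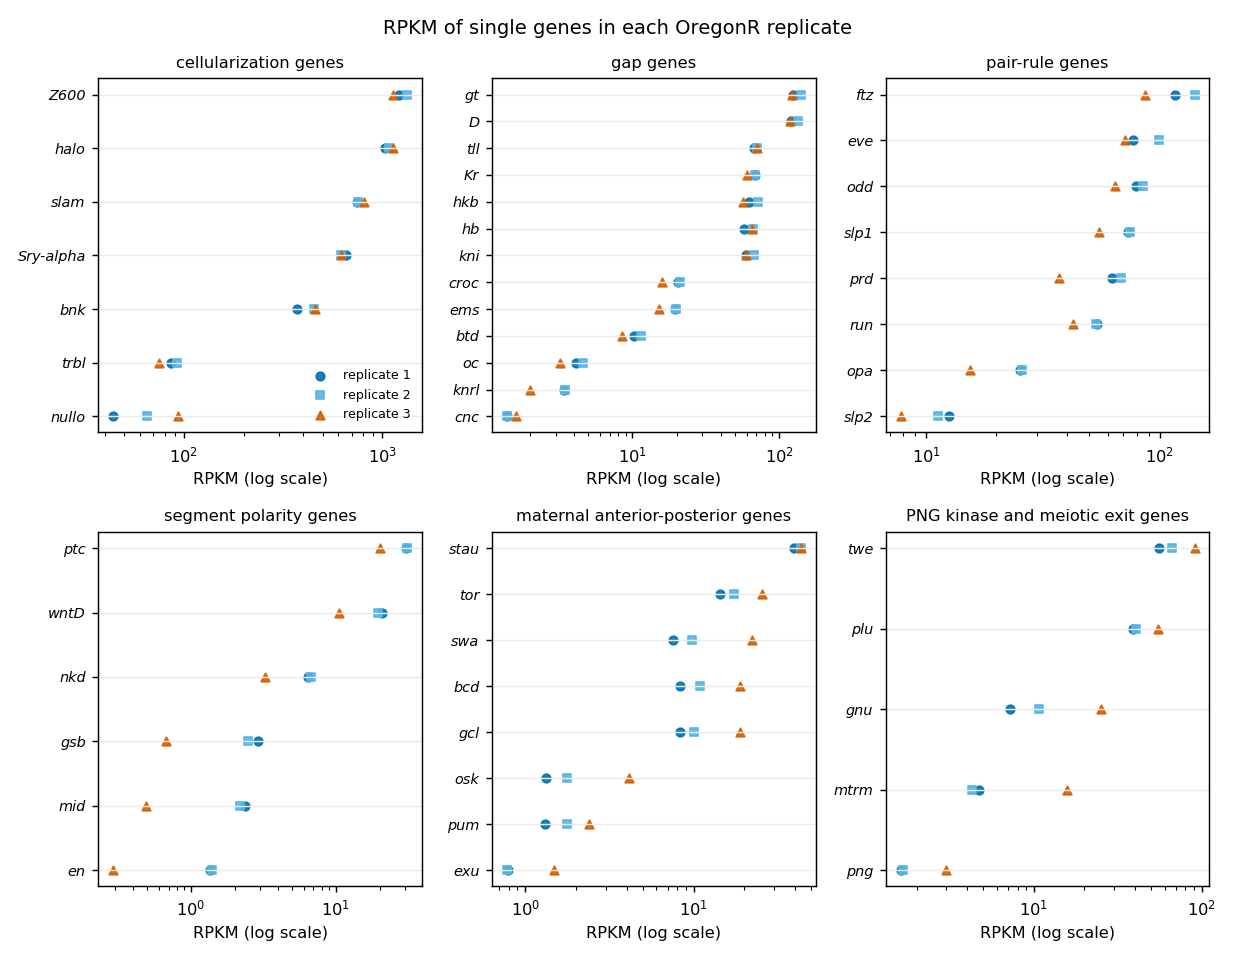
RPKM (log scale) of single genes in each OregonR replicate in 6 panels, with a blue circle for replicate 1, a light blue square for replicate 2 and an orange triangle for replicate 3. Only members with a mean of at least 1 RPKM are drawn. The triangle lies leftmost for each pair-rule and segment polarity gene, and rightmost for the genes of the PNG kinase and meiotic exit list and for 7 of 8 maternal anterior-posterior genes.

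In the maternal lists the levels were lower, with a median of 8.98 RPKM over the 52 genes against 15.5 RPKM over the 96 zygotic genes. Per summed exon length the medians were 18.6 and 23.3 RPKM. The 52 include pip, wbl, ndl and tsl, at 0.00546, 0.0800, 0.246 and 0.0316 RPKM, which act in the follicle cells of the ovary. In the maternal lists replicate 3 lay on the other side. Of 10 anterior-posterior genes, 8 were above 1 RPKM, and nos of this list matched no row. stau, which anchors localized RNA, was the most abundant and the most even, at 39.7, 43.4 and 43.4 RPKM, followed by the terminal receptor gene tor at 14.4, 17.5 and 25.3 RPKM. The anterior determinant bcd stood at 8.27, 10.9 and 18.9 RPKM, swa, which localizes it, at 7.56, 9.80 and 22.2 RPKM and osk, the organizer of germ plasm, at 1.34, 1.78 and 4.11 RPKM. In bcd, swa and osk replicate 3 was apart from the others and replicates 1 and 2 were the closer pair. Replicate 3 was highest in 7 of the 8 genes, against 46.5% of all 6947 genes, with a median of +0.78 on log2(RPKM + 1), and 4 of the 8 had a range of at least 2-fold on this scale, against 1.76% of all 6947 genes.

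In the Toll pathway, which turns the ventral signal from the eggshell into nuclear Dorsal, 10 of 14 genes were above 1 RPKM. The inhibitor gene cact led at 64.7, 72 and 69 RPKM, and it overlaps fzy in the annotation. The protease gene ea stood at 43.2, 44.8 and 50.8 RPKM and the serpin gene Spn27A at 43.7 ± 1.59 RPKM. The receptor gene Tl stood at 22.1, 24.5 and 29.8 RPKM and the ligand gene spz, with the largest range of the list, at 1.35, 1.81 and 3.72 RPKM. Replicate 3 was highest in 8 of the 10 genes and lowest in none of them. dl, for the transcription factor Dorsal itself, was listed at only 0.0748, 0.0874 and 0.216 RPKM (79, 102 and 218 reads), a value singled out after it was seen. The counting tool and annotation behind it are not given. Whether reads of dl were lost in counting was not tested, so the value is not read as the abundance of its message.

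The germ plasm list was less uniform, and vas of this list matched no row. Of 12 genes, 11 were above 1 RPKM, with vls, whose protein works with the arginine methyltransferase of germ plasm, at 38.0, 36.4 and 31.0 RPKM, the Piwi-family gene aub at 30.0, 31.2 and 41.7 RPKM and the helicase gene spn-E at 11, 12 and 17.1 RPKM. The widest spread was that of krimp, another piRNA pathway gene, at 5.23, 6.64 and 12.2 RPKM. Replicate 3 was highest in 7 of the 11 genes, against 46.5% of all 6947 genes, and lowest in vls, tud and Tre1. The scaffold gene tud, at 7.62, 6.75 and 4.19 RPKM, lay on the side of the zygotic lists (tud and Tre1 were named after their values were seen).

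The regulators that repress and clear maternal messages were among the more abundant maternal genes. The DEAD-box helicase gene me31B stood at 475, 516 and 585 RPKM, its partner tral at 70.2, 86.9 and 95.8 RPKM, and smg, which recruits the deadenylase to maternal messages, at 57.5, 73.2 and 128 RPKM. Of 9 genes above 1 RPKM, replicate 3 was highest in 8, and smg had the largest range, 1.14 on log2(RPKM + 1). The genes of the PNG kinase, which starts translation at egg activation, and of meiotic exit were also highest in replicate 3, in 5 of 5 genes above 1 RPKM, with a median of +0.60. The phosphatase gene twe, a Cdc25 of meiosis that overlaps EndoGI, stood at 55.5, 66.6 and 90.8 RPKM. Of the PNG subunits, plu stood at 38.7, 40.3 and 55.2 RPKM, gnu at 7.17, 10.7 and 25.0 RPKM and png at 1.60, 1.65 and 2.99 RPKM. The Polo inhibitor gene mtrm, which overlaps Exo70, stood at 4.69, 4.25 and 15.8 RPKM.

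The genes of the early nuclear cycles differed among themselves. CycB3, CycB and fzy were the most abundant of 18 genes, all of them above 1 RPKM. CycB3 stood at 497, 528 and 517 RPKM and fzy, an activator of the anaphase-promoting complex, at 282, 286 and 284 RPKM, so both were even over the replicates. CycB stood at 384, 408 and 573 RPKM and the mitotic phosphatase gene stg at 12.9, 13.7 and 22.8 RPKM, which was the largest range of the list. The median of replicate 3 against the others over the list was +0.02, the same as over all 6947 genes. The pioneer factor genes had log2 ranges of at most 0.31. Clamp, for a GA-binding zinc finger protein, stood at 102, 114 and 127 RPKM, Trl, for the GAGA factor, at 32.1 ± 2.93 RPKM, zld, for the activator Zelda, at 23.1, 28.5 and 27.6 RPKM and psq at 13.2 ± 0.943 RPKM.

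The genes of the SAGA deubiquitinase module, which removes ubiquitin from histone H2B and contains the proteins whose mutants the study examined, were expressed in all OregonR libraries. The protease gene not stood at 52.3, 53.5 and 56.7 RPKM, e(y)2 at 47.8, 55.8 and 52.3 RPKM, Sgf11 at 45.4, 52.5 and 51.4 RPKM and Atxn7, which anchors the module to the SAGA complex, at 18, 19.1 and 19.8 RPKM. The ranges of not, e(y)2 and Sgf11 overlapped one another, and Atxn7 lay below all of them per kb of deposited length.

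Most histone variant genes had higher RPKM than the listed replication-dependent histone genes, whose messages end without a poly(A) tail. His2Av stood at 849.9, 834 and 789 RPKM, His4r at 595 ± 36.3 RPKM, His3.3B at 434 ± 27.8 RPKM and His3.3A at 289 ± 33.1 RPKM. The embryonic linker histone gene BigH1 stood at 30.0, 34.9 and 57.5 RPKM and was the member with the largest range. All 111 replication-dependent histone genes were above 1 RPKM, with a median of 9.25 RPKM and a maximum of 23.7 RPKM, and replicate 3 was highest in 109 of them. The copies share nearly all their sequence, so their reads cannot be assigned to a single copy and the 111 genes are not independent observations.

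Most of the other housekeeping lists were even over the replicates. The median CV was 3.45% in the 5 matched genes of translation elongation and initiation. Among these, eEF2 led, then eEF1gamma at 1191, 1201 and 1178 RPKM and eEF1beta at 1146 ± 51.9 RPKM. This order leaves out eEF1alpha1 and eIF5A, which matched no row by symbol and may be among the identifiers without a symbol. So eEF2 need not be the most abundant elongation factor gene of these libraries. The median CV was 5.23% in the matched actin and tubulin genes, without betaTub56D. They were led by alphaTub84B, by Act5C at 1100.25 ± 50.5 RPKM and by the cofilin gene tsr at 517 ± 38.1 RPKM. Their exception was the maternal tubulin gene alphaTub67C, at 1.98, 1.71 and 3.49 RPKM, highest in replicate 3. Proteasome genes had a median CV of 5.07%, with the core subunit genes Prosalpha6, Prosbeta3 and Prosbeta5 at 408 ± 25.8, 346 ± 7.22 and 345 ± 16.8 RPKM and the widest range in Rpn11, at 27.0, 24.7 and 17.2 RPKM. Genes of oxidative phosphorylation had 6.06%, with the ATP synthase genes ATPsynCF6, ATPsynbeta and ATPsynG at 308 ± 24.0, 256 ± 21.0 and 224 ± 5.44 RPKM and the widest range in UQCR-11, at 90.7, 58.3 and 90.1 RPKM. In replicates 1, 2 and 3 the proteasome genes took 0.625%, 0.629% and 0.628% of the reads and the genes of oxidative phosphorylation 0.740%, 0.749% and 0.761%.

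The nuclear genes of mitochondrial ribosomal proteins had a median of 27.2 RPKM, far below the 898 RPKM of the cytoplasmic ones on the same scale, and a median CV of 8.56%. mRpS7, mRpS10 and mRpS30 led at 106 ± 6.60, 65.1 ± 3.61 and 61.2 ± 5.89 RPKM, and mRpS2 had the widest range, at 9.81, 8.30 and 4.91 RPKM. Among the cytoplasmic ones the widest range was that of RpS9, at 775, 606 and 868 RPKM. The chaperonin genes, for subunits of the ring that folds actin and tubulin, were less even than the median gene. Their median CV was 13.3% against 11.2% over all 6947 genes, and their share of the reads was 0.0454%, 0.0452% and 0.0554%. Replicate 3 was highest in 5 of 7, against 46.5% of all 6947 genes, with a median of +0.27 on log2(RPKM + 1). CCT1 stood at 57.8, 59.8 and 81.5 RPKM, CCT3 at 32.8, 37.0 and 45.5 RPKM and CCT5 at 23.8, 23.9 and 28.5 RPKM, and CCT6 had the widest range, at 15.7, 15.1 and 22.9 RPKM.

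The heat shock and chaperone list was uneven as well, with a median CV of 14.4%. Replicate 3 was the highest in 5 of the 9 genes above 1 RPKM, against 46.5% of all 6947 genes. Hsc70-4 of this list matched no row. The chaperone gene of the endoplasmic reticulum, Hsc70-3, stood at 72.9, 84.0 and 94.9 RPKM and the Hsp90 gene Hsp83 at 68.5, 56.4 and 58.8 RPKM. The widest range of the list was that of Hsp27, which is described with the genes that differ most in replicate 3.

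**Figure D4:**
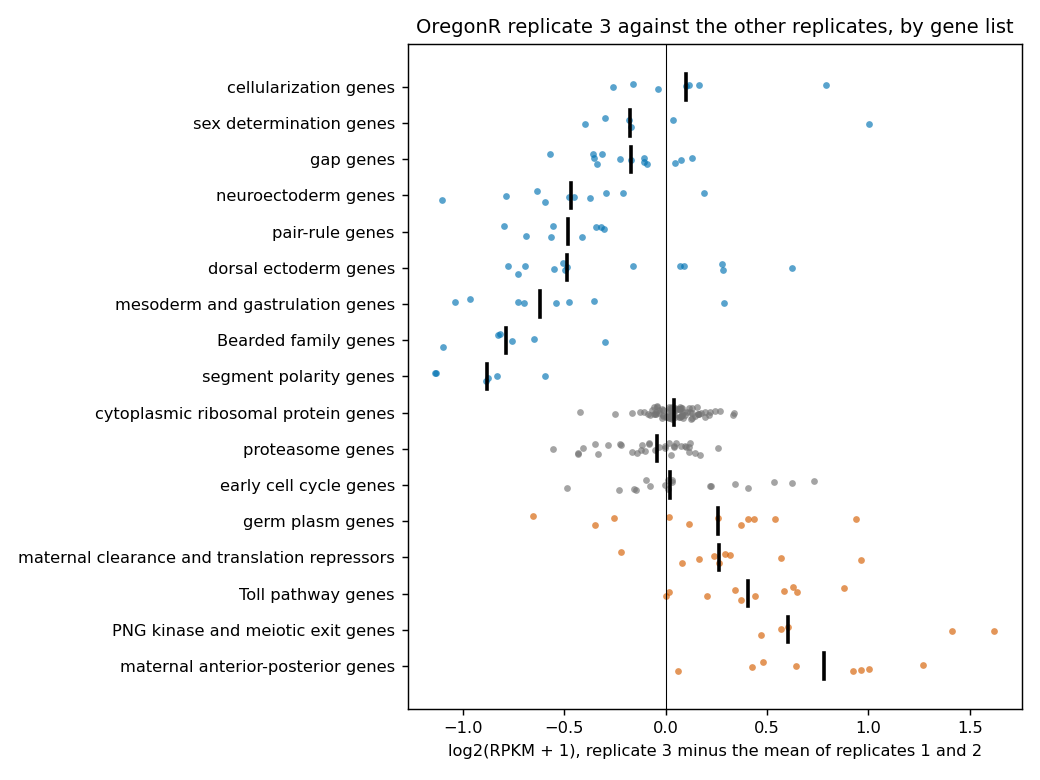
Difference on log2(RPKM + 1) between replicate 3 and the mean of replicates 1 and 2, 1 point per gene with a mean of at least 1 RPKM, for zygotic lists (blue), housekeeping and cell cycle lists (grey) and maternal lists (orange), with the median of each list as a black bar and a vertical line at 0. The list medians run from -0.88 for segment polarity genes to +0.78 for maternal anterior-posterior genes, with cytoplasmic ribosomal protein genes near 0.

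Over all zygotic lists, replicate 3 was the lowest library in 61 of the 78 genes above 1 RPKM and the highest in 12, with a median difference of -0.37 on log2(RPKM + 1). Over all maternal lists it was the lowest in 4 of 43 genes and the highest in 35, with a median of +0.43. Over all 6947 genes it was the lowest in 39.8% and the highest in 46.5%, with a median of +0.02. Replicate 1, set against the mean of the others, had a median of -0.32 in the maternal lists and was lower in 38 of 43 genes. Replicate 2 lay between, with a median of -0.09. In the zygotic lists the medians were +0.16 for replicate 1 and +0.20 for replicate 2. These members were filtered on their mean over the 3 replicates, and the direction of each list has no test. The lists also differed in gene structure, since 24 of the 78 zygotic and 3 of the 43 maternal genes had no intron, against 1028 of 6626 annotated genes at 1 RPKM or more, and replicate 3 had the fewest reads of the libraries. The part of structure and depth in the result was not tested.

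Across the transcriptome, 122 of 6947 genes had a range of at least 1 on log2(RPKM + 1), which is 1.76%. Replicate 3 was the highest library in 82 of them, replicate 1 in 31 and replicate 2 in 9. The lowest library was replicate 1 in 58, replicate 2 in 35 and replicate 3 in 29. Without replicate 3 only 16 genes passed this range, and without replicate 1 there were 57. When each replicate was set against the mean of the others, replicate 3 was at least 1.5-fold higher in 320 genes (4.61%) and at least 1.5-fold lower in 407 (5.86%). The corresponding counts were 75 (1.08%) and 88 (1.27%) for replicate 1, and 12 (0.173%) and 49 (0.705%) for replicate 2. Nearly all genes varied by more than counting alone gives, with a variance above the counting variance in 6685 of 6947 genes (96.2%). The median CV was 17.9% in genes of 1 to 10 RPKM, 8.87% in those of 10 to 100 RPKM and 4.58% in those of 1000 RPKM or more, so spread was widest among low genes.

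**Figure D5:**
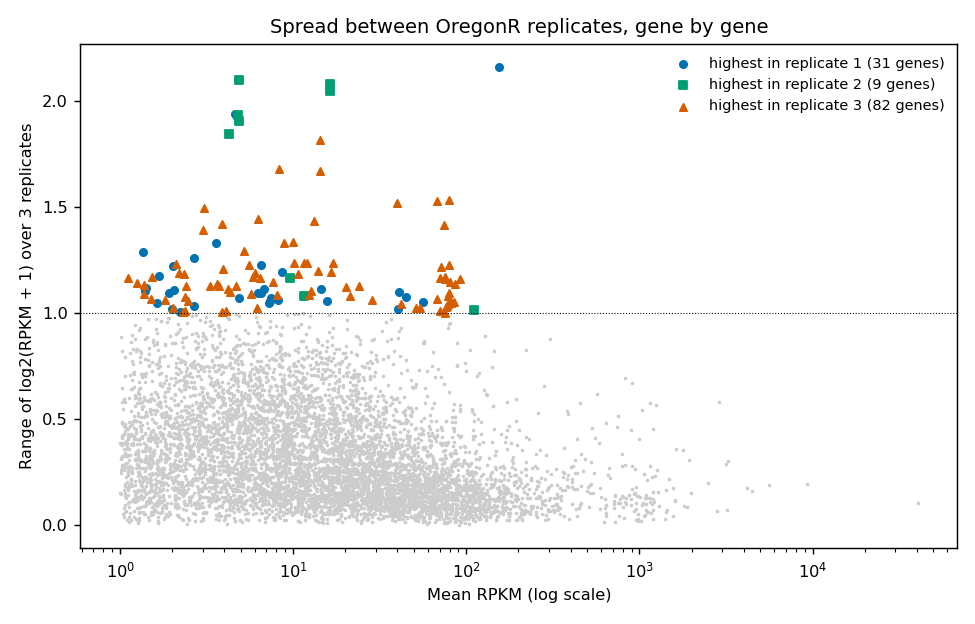
Range of log2(RPKM + 1) over the 3 OregonR replicates against mean RPKM (log scale) for the 6947 genes with a mean of at least 1 RPKM, with a dotted line at a range of 1. The 122 genes on or above the line are marked by the replicate in which they were highest (82 triangles for replicate 3, 31 circles for replicate 1, 9 squares for replicate 2), and the others are grey.

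Of the genes with a mean of at least 10 RPKM, the largest excess in replicate 3 was that of Lsd-2, which encodes a perilipin of lipid droplets. It lies on X:15069127-15076220 in BDGP6 with 6 exon blocks and stood at 6.89, 9.39 and 26.8 RPKM, from 2556, 3844 and 9501 reads. It was followed by gnu, by the small heat shock gene Hsp27 at 38.4, 51.3 and 113 RPKM and by swa. The pseudogene CR43482, which lies close to Hsp27, stood at 21.6, 33.9 and 63.9 RPKM, the same order as Hsp27. The proton pump subunit gene Vha55 stood at 7.04, 7.57 and 17.3 RPKM and the eggshell peroxidase gene Pxt at 7.30, 8.61 and 18.6 RPKM. In all of these genes replicate 3 exceeded both others by more than they differed from each other. The remaining gene of this group, sncRNA:430j, belongs to 20 copies of a short RNA gene that all overlap a histone gene on 2L. In 20 of the 20 copies replicate 3 was the highest and replicate 2 the lowest library, and 18 of the 122 varying genes were such copies, which share reads with each other and with the histone repeat.

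The largest deficits of replicate 3 belonged to Hsp70Ab and Hsp70Aa, heat shock genes at 13.6, 29.0 and 6.10 RPKM and at 13, 29.7 and 6.43 RPKM. All 6 Hsp70 genes in the table, a list drawn up after values were seen, were highest in replicate 2 and lowest in replicate 3. Their sequences are close to identical, so they stand for a single observation. Genes of patterning were among the other large deficits. dan, a gene of antennal and eye development, stood at 55.2, 53.5 and 25.7 RPKM, trn, for a leucine-rich repeat protein of the cell surface, at 51.5, 47.0 and 23.5 RPKM and ci, the transcription factor gene of Hedgehog signalling, at 69.9, 66.2 and 33.1 RPKM. VepD stood at 18.8, 16.4 and 8.12 RPKM, and E(spl)m5-HLH and E(spl)m7-HLH completed the 8. In all 6 of these genes replicates 1 and 2 lay close together and replicate 3 was apart and lower.

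Replicate 1 also stood apart in genes of its own, as counted above. The widest range of any gene at 1 RPKM or more was that of mt:tRNA:Leu-TAA, with 312 RPKM in replicate 1 against 68.9 and 84.9 RPKM in replicates 2 and 3, from 1606, 392 and 418 reads on 66 bases (chosen after its values were seen). By class, 23 of 114 noncoding RNA genes and 84 of 6300 protein-coding genes had a range of at least 1, that is 20.2% and 1.33%, and 18 of the 23 were copies of sncRNA:430. At the other end, genes with the smallest ranges among those at 100 RPKM or more that overlap no other gene were CSN5, for a subunit of the COP9 signalosome, at 103.8, 103.8 and 104.3 RPKM, Grx3 at 112.3, 110.6 and 111.6 RPKM and RpL36 at 1032, 1017 and 1033 RPKM (named after their values were seen).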

How the data were processed

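Polyadenylated RNA of 3 OregonR embryo libraries was analysed, and 6 libraries of the other genotypes in the same table were not described. The authors deposited RPKM values, 1 table of 15682 genes by 9 libraries, and 0 columns were left without a sample. The submitters' processing notes list CASAVA 1.8.2, TopHat2 2.0.13, edgeR 3.14.0 and the genome build dm3, with no role given. The counting tool and the annotation are not given in the sources used here. The paper given with the series does not describe these libraries.

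Whole reads were recovered from the deposited RPKM as ratios between libraries, with a relative tolerance of 3e-13, in Python 3.11.15 with numpy 2.4.6, pandas 2.3.3 and scipy 1.17.1, and the method was tested on simulated data. Recovery gave sums of 80.1, 90.1 and 76.5 M reads (megareads), rescaled by factors of 0.975, 0.958 and 0.976 by the authors. Figures were drawn with matplotlib 3.10.9. Symbols, positions and exon lengths came from the BDGP6 annotation (Ensembl release 115) by identifier, with 15002 identifiers matched and 680 not matched (7.70% of reads). No read was recounted, and positions are those of BDGP6, not of the build of the files. Of the genes, 205 had all 3 values in common with another gene.

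Differences between replicates are on log2(RPKM + 1), a scale that understates differences of low genes, and genes were required to have a mean of at least 1 RPKM. Replicates are biological per the labels, and the spread is that between these samples. No test was made, since there is 1 group. Named were the 20 most abundant genes with a symbol, in each list the 3 most abundant members and the one with the largest range (in the lists of other cell types, of histone copies and in those added later, only some of these), the 8 largest excesses and the 8 largest deficits of the replicate that correlated least with the others at a mean of at least 10 RPKM, any gap, pair-rule or cellularization gene, not, Sgf11, e(y)2 and Atxn7, and the 8 most abundant noncoding genes; some further members are named for their role. Members and lists were chosen with earlier results of these data known. List members that matched no row are not analysed here. Lists were matched by symbol, so such a member may be among the 680 identifiers without a match and need not be absent. Alternatives were each replicate left out, other thresholds, pseudocounts, scalings and lengths, and genes without overlap. Promoter motifs were not analysed here.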

Additional observations from a re-analysis of the deposited data

How the results depend on the processing

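The number of genes at 1 RPKM or more, 6947, lay between 6933 and 6959 without any one replicate, and was 6705 when each replicate had to reach 1 RPKM, 7532 at a minimum of 0.5 RPKM, 5129 at 5 RPKM and 7001 per summed exon length. Of the 20 most abundant genes, 19 to 20 stayed without any one replicate, 15 per exon length and 14 among genes without overlap. Shares of the library moved with the measure. As shares of summed RPKM in place of reads, the maternal lists had 0.340%, the ribosomal protein genes 18.7% and the mitochondrial genome 16.2%. Among genes that overlap no other gene, the zygotic lists had 2.00%, the maternal lists 1.04%, the ribosomal protein genes 7.99% and the mitochondrial genome 13.9%. Without any one replicate the shares lay between 1.58% and 1.68% for the zygotic lists, 0.765% and 0.887% for the maternal lists, 9.55% and 9.87% for the ribosomal protein genes and 7.66% and 8.01% for the mitochondrial genome.

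The count of varying genes, 122, lay between 16 (without replicate 3) and 88 (without replicate 2). It was 351 with a pseudocount of 0.1, 28 with a pseudocount of 5 and 52 at a minimum of 10 RPKM. Without overlapping genes it was 57, an alternative added after seeing the data, and in protein-coding genes alone 84. Quantile normalization gave 143, median-of-ratios scaling 127, total reads 121 and no filter 127. The median difference of replicate 3 from the others in 34 lists kept its sign in 198 of 201 values under 6 settings, also added after seeing the data. The 3 exceptions, under quantile normalization, were the pioneer factors (0.0636 to -0.0042), the SAGA deubiquitinase module (0.0806 to -0.0091) and the mitochondrial genome (-0.0232 to 0.0108). The scalings moved the median of all genes to at most 0.04. No paired analysis was possible because a single group is described. The promoter motif description and its other window were not run, since no promoter table was used here. Depth limits genes of few reads, and 5921 genes under 1 RPKM had a median CV of 48.1%.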

Other observations

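Genes of DNA replication, a list drawn up after values were seen, did not move as a single group between the replicates. Of 21 matched genes, replicate 3 was the lowest in 15 and the highest in 5, against 39.8% and 46.5% of all 6947 genes. Mcm3, Orc1, RpA-70, RPA2 and RPA3 of this list matched no row. The licensing regulators geminin, at 305, 319.7 and 367 RPKM, Cdc6, at 132, 139.9 and 151 RPKM, and dup, at 54.4, 60.7 and 66.2 RPKM, were highest in replicate 3. The ribonucleotide reductase subunit gene RnrS stood at 100.2, 87.8 and 51.3 RPKM, and the genes of DNA polymerase alpha and primase, PolA1 at 20.8, 18.9 and 10.8 RPKM, PolA2 at 19.7, 18.5 and 9.98 RPKM and Prim2 at 10.6, 9.5 and 5.21 RPKM, were lowest there. Mcm7, a subunit of the replicative helicase, was even at 295, 279 and 276 RPKM.

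Of 11 glycolysis genes, also listed after values were seen, 10 were above 1 RPKM. Replicate 3 was the highest in 7 of these, against 46.5% of all 6947 genes. Eno stood at 15.4, 15.5 and 30.1 RPKM, Gapdh1 at 14.4, 14.8 and 25.3 RPKM and Hex-A, for the hexokinase of the first step, at 3.97, 5.22 and 10.2 RPKM. Pgi was lowest in replicate 3, at 8.76, 7.17 and 5.02 RPKM. Median levels of this list, 6.45 RPKM, lay below those of the ribosomal protein and proteasome genes on the same scale. The poly(A) polymerase gene wisp, which extends the tails of maternal messages, had a mean of 42.0 ± 16.2 RPKM with replicate 3 the highest and replicate 1 the lowest, as in most of the maternal lists.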
